A study of Mus musculus with 25 samples.

Results

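The 9 genes described here encode adrenergic receptors and the Gq signalling step that follows them in heart muscle. They are the alpha-adrenergic receptors Adra1a, Adra1b and Adra1d, the beta-adrenergic receptor Adrb1, the G protein subunits Gnaq and Gna11, the regulators of G protein signalling Rgs2 and Rgs4, and the phospholipase Plcb1. They were listed by symbol, with earlier results of these data known, and each symbol mapped to 1 of the 56941 genes in the deposited count table. All 9 passed the low-count filter and were among the 17682 genes tested.

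RNA was sequenced from 25 mouse hearts labelled wild type (WT) or MCT1KO, a loss of the lactate transporter MCT1, whose gene is Slc16a1. The study asked how lactate metabolism bears on cardiac hypertrophy, which was provoked with hormone agonists labelled Ang/PE. The groups were WT with no pump (4 hearts), MCT1KO with no pump (3), WT with saline (6), MCT1KO with saline (4), WT with Ang/PE (3) and MCT1KO with Ang/PE (5). The labels do not give strain, sex, age, dose or infusion time, the way in which MCT1 was removed or the cells that lost it, or whether a library came from 1 animal, so p-values measure the spread between these samples.

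Noradrenaline and adrenaline act on cardiac muscle through 2 receptor families. Beta-adrenergic receptors couple to Gs and raise cyclic AMP, which speeds and strengthens the heartbeat. Alpha-1 receptors, like the angiotensin receptor, couple to Gq and G11, which switch on phospholipase C. The lipase splits a membrane lipid into diacylglycerol and inositol trisphosphate, a route long known for its part in hypertrophic growth, and RGS proteins end the signal by speeding the hydrolysis of GTP. The labels do not spell out Ang/PE; PE is a common short form of phenylephrine, an agonist of alpha-1 receptors.

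The libraries held 12216704 to 24880683 counts, and each no pump library had at least 18382102. Slc16a1 was at 202.5 ± 36.8 counts per 1000000 reads (CPM; SD, n = 4) in WT and 199.8 ± 29.6 (n = 3) in MCT1KO hearts without a pump. With saline it was at 198.7 ± 29.9 (n = 6) and 158.1 ± 26.0 (n = 4), and with Ang/PE at 214.4 ± 10.6 (n = 3) and 189.8 ± 21.9 (n = 5). None of these genotype differences passed edgeR's test (adjusted p = 0.976, 0.219 and 0.807), so hearts are named below by their label only. Heart muscle markers (Myh6, Tnnt2, Tnni3, Actc1, Ryr2, Myl2 and Pln) summed to between 33070 and 65990 CPM in every heart. The atrial markers Myl7, Myl4 and Sln summed to 18.4 CPM or more in 8 of the 10 saline hearts, and to at most 5.73 in the 15 hearts of the other groups. Nppa, the other listed atrial marker and also a gene of the hypertrophy response, did not follow them outside the saline groups: it was at 5144 and 1759 CPM in MCT1KO Ang/PE replicates 2 and 5, against 44.5 to 1459 in WT saline and 62.5 to 3706 in MCT1KO saline hearts. MCT1KO saline replicate 4 stood apart, with 3680 CPM of these atrial markers and 1220 CPM of the fat markers, which reached at most 46.7 CPM in WT saline hearts and 18.2 CPM in the no pump and Ang/PE hearts. Xist, made by cells with 2 X chromosomes, was detected at 547.7 CPM and above in 13 hearts and did not exceed 0.5362 CPM in the other 12. In the group order above, hearts with Xist numbered 2 of 4, 0 of 3, 1 of 6, 3 of 4, 3 of 3 and 4 of 5.

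None of the 9 genes changed at an adjusted p below 0.05 in any of the 11 comparisons made with edgeR's quasi-likelihood test. Of the 99 gene-by-comparison tests 12 had an unadjusted p below 0.05, and 5 of these had an adjusted p below 0.10. The latter were Adrb1 and Adra1b, lower in WT hearts with Ang/PE than with saline; Rgs2, lower in MCT1KO hearts with Ang/PE than with saline; and Adrb1 and Adra1d, higher in WT hearts with saline than with no pump. The comparisons of Ang/PE with saline and of saline with no pump use the same saline hearts, so these sets of values are not independent.

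The share of all tested genes that edgeR called differed widely between the comparisons. In the step from saline to Ang/PE, where 0 of the 9 genes were called in either genotype, it was 0.0170% in WT and 4.46% in MCT1KO hearts. For saline against no pump, again with 0 of 9 in each, it was 6.61% in WT and 0.00566% in MCT1KO. For Ang/PE against no pump it was 0.00% and 0.503%, with 0 of 9 in both. For MCT1KO against WT it was 0.00% with no pump, with saline and with Ang/PE, and for the interactions 0.00% (Ang/PE) and 0.00566% (saline), with 0 of 9 in all 5. At an unadjusted p below 0.05, Ang/PE against saline had 2 of 9 in WT (19.1% of all tested genes) and 2 of 9 in MCT1KO (20.4%), and saline against no pump had 2 of 9 in WT (24.3%) and 2 of 9 in MCT1KO (12.1%). The other counts were 1 of 9 each for the Ang/PE interaction (13.5%), for Ang/PE against no pump in WT (9.02%) and in MCT1KO (13.1%), and for MCT1KO against WT with saline (17%). Counts of 0 of 9 were found for MCT1KO against WT with no pump (12.2%) and with Ang/PE (6.92%) and for the saline interaction (17.2%). With at most 2 of 9 in any comparison, these counts lie close to what the same share of all genes gives.

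DESeq2 called 2 of the 9 for Ang/PE against saline in WT (3.63% of all tested genes), 1 in MCT1KO (6.92%), and 2 for saline against no pump in WT (11%). It called 0 of the 9 for saline against no pump in MCT1KO (1.18%), for Ang/PE against no pump in WT (0.198%) and MCT1KO (2.28%), and for the interactions with Ang/PE (0.0735%) and saline (2.10%). For MCT1KO against WT it also called 0 of 9, with no pump (0.492%), saline (0.797%) and Ang/PE (0.0283%). The genes were the 5 pairs of gene and comparison named above.

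**Figure D1:**
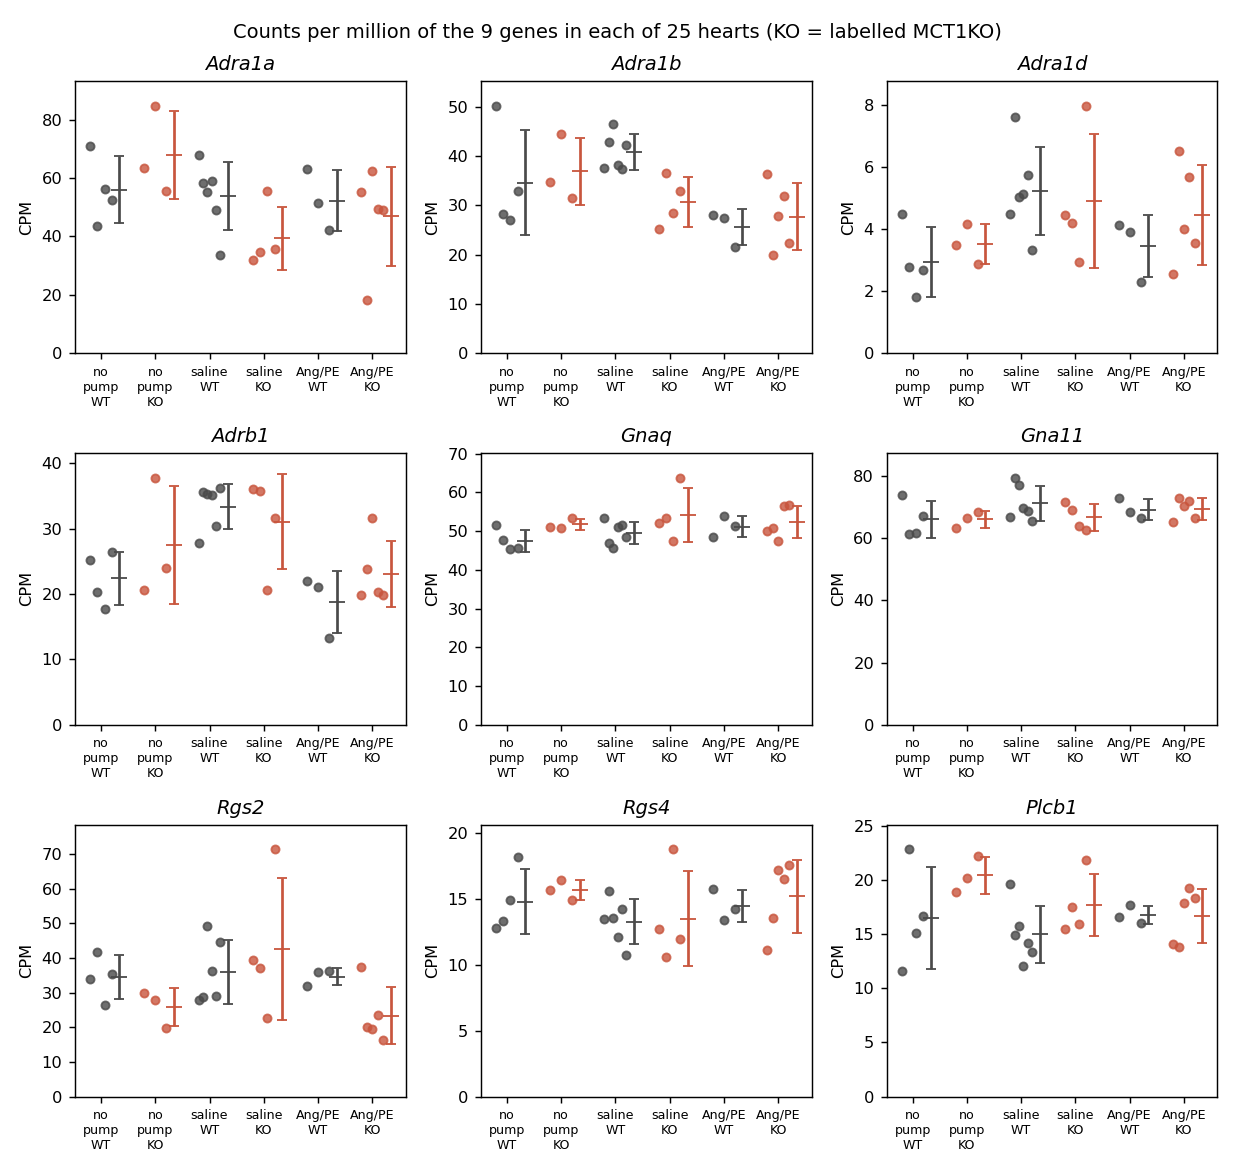
CPM of each gene (vertical axes, linear and starting at 0) in every heart, by treatment and genotype; points are hearts, the horizontal mark is the group mean and the bar 1 SD, with WT in grey and MCT1KO in red. Gnaq and Gna11 lie in narrow bands, while Rgs2 reaches 71.4 CPM in 1 MCT1KO saline heart and Adra1a drops to 18.2 CPM in 1 MCT1KO Ang/PE heart.

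Levels can be set against each other only per length, as CPM divided by the exon length in kilobases (RPKM), here as the mean ± SD over the 25 hearts. Gna11 was highest at 16.7 ± 1.12 RPKM. Adra1b (9.86 ± 2.36), Rgs2 (9.07 ± 3.18), Gnaq (8.24 ± 0.670), Adrb1 (7.91 ± 2.14), Adra1a (5.95 ± 1.63) and Rgs4 (4.64 ± 0.737) followed, and each neighbouring pair in that order lay within 1 SD of each other. Adra1d (2.23 ± 0.825) and Plcb1 (1.52 ± 0.273) were lowest, and their SD ranges also overlapped. Breaks wider than the SDs fell between Gna11 and Adra1b and between Rgs4 and Adra1d. By this measure Adra1b and Adra1a were both above Adra1d, which had 28 to 135 reads in a library against 260 to 1577 for Adra1a.

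The genes also differed in how much they varied from heart to heart. The coefficient of variation of CPM over the 25 hearts was 6.70% for Gna11 and 8.13% for Gnaq, 15.9% for Rgs4 and 18% for Plcb1. It was 23.95% for Adra1b, 27.0% for Adrb1, 27.4% for Adra1a, 35.1% for Rgs2 and 37.1% for Adra1d. The G protein subunits were thus the steadiest of the 9, and the receptors and Rgs2 the most variable.

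The promoter windows of Adrb1 and Rgs2 are shown because these were the receptor and the regulator with the largest fitted fold changes. Each runs from 250 bases before to 50 bases after the RefSeq gene start on assembly GRCm38.p6, 5′ to 3′ on the gene's strand. The Adrb1 window is chr19:56721867-56722166 on the plus strand, with 72.3% GC, and the Rgs2 window is chr1:144004100-144004399 on the minus strand, with 70% GC. Capitals mark the letters TGACG or their reverse complement, the core of the site bound by the cyclic AMP responsive factor CREB.
Adrb1: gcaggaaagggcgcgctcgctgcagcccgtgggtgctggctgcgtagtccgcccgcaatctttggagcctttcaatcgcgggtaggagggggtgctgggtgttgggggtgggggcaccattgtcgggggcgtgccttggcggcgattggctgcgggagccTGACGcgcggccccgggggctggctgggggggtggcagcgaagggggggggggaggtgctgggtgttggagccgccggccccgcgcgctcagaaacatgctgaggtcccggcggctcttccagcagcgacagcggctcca
Rgs2: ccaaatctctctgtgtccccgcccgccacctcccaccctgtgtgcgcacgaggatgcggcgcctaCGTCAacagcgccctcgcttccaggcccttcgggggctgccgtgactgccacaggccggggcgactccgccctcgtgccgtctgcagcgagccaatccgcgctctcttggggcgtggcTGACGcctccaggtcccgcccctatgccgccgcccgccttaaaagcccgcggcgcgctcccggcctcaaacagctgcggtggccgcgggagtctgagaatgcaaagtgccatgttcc
Windows were found for 7 of the 9 genes, 8 windows in all, and none for Adra1a and Adra1d. TGACG on either strand stood in 3 of the 8 (Adrb1 with 1 match, Rgs2 and Rgs4 with 2 each), against 20.8% of the 32851 windows of this length in the table. That share was not matched for GC content. The median GC content of all windows was 52.7%, below the Adrb1 and Rgs2 windows and near the 53% of the Rgs4 window. The full palindrome TGACGTCA stood in 0 of the 8, against 1.79% of all windows. These matches describe letters only.

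Adrb1, the main beta receptor of cardiac muscle, tended to be highest in the saline hearts. In WT hearts it was at 25.2, 20.4, 17.7 and 26.4 CPM without a pump. With saline the lowest, median and highest of the 6 were 27.8, 35.2 and 36.2 CPM, and with Ang/PE the hearts had 21.9, 21.03 and 13.4 CPM. Every WT saline heart was therefore above every other WT heart. In MCT1KO hearts the levels were 20.7, 37.8 and 24.04 CPM without a pump and 36.1, 35.8, 20.6 and 31.7 with saline. With Ang/PE they were 19.8, 23.8, 31.7, 20.3 and 19.8 CPM. These 3 MCT1KO groups overlapped, with 1 saline heart at 20.6 CPM and 1 no pump heart the highest of all 25.

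The Ang/PE against saline log2 fold change of Adrb1 in WT was -0.83 (SE 0.21, 95% interval -1.27 to -0.39, unadjusted p = 0.000687, adjusted p = 0.0711 in edgeR). For saline against no pump in WT it was 0.58 (SE 0.19, interval 0.19 to 0.96, adjusted p = 0.0634 in edgeR). In MCT1KO hearts the same differences were -0.43 (SE 0.19, adjusted p = 0.207) and 0.18 (SE 0.22, adjusted p = 0.802) in edgeR. The genotypes were not shown to differ in either step, with edgeR interactions of 0.40 (SE 0.28, adjusted p = 0.539) and -0.40 (SE 0.29, adjusted p = 0.488). Against no pump, Ang/PE hearts had Adrb1 log2 fold changes of -0.25 in both genotypes (adjusted p = 0.779 in WT and 0.681 in MCT1KO in edgeR). Without MCT1KO saline replicate 3, a heart of neither WT group but part of the shared model, Adrb1 passed in both WT steps (adjusted p = 0.0393 and 0.0378 in edgeR), and without MCT1KO no pump replicate 2 it passed in the second (adjusted p = 0.0487). Leaving out other hearts weakened it. Over all hearts left out singly, the first step ran from -0.96 to -0.62 (adjusted p = 0.0393 to 0.563 in edgeR). The second ran from 0.47 to 0.66 (adjusted p = 0.0378 to 0.225 in edgeR). With Xist as a covariate, which 1 of 6 WT saline and 3 of 3 WT Ang/PE hearts expressed, the WT values of Adrb1 were -0.78 (adjusted p = 0.25) and 0.56 (adjusted p = 0.107) in edgeR.

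Adra1b, an alpha-1 receptor, was lower in the Ang/PE hearts than in the saline hearts of the WT label. Its WT levels were 50.3, 28.3, 27.1 and 33.0 CPM without a pump and 28.2, 27.5 and 21.5 with Ang/PE. The 6 WT saline hearts ran from 37.4 through a median of 40.3 to 46.6 CPM, all above the 3 Ang/PE hearts. The log2 fold change was -0.67 (SE 0.19, interval -1.06 to -0.27, unadjusted p = 0.00192, adjusted p = 0.0843 in edgeR). Adrb1 and Adra1b were the 2 of the 9 whose groups did not overlap in this comparison, both lower, as in 7.16% of all tested genes. In the step from no pump to saline in WT it was Adrb1 alone of the 9, higher with saline, as in 4.10% of all tested genes.

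In MCT1KO hearts Adra1b was at 34.8, 44.4 and 31.5 CPM without a pump and at 25.1, 36.6, 28.4 and 32.9 with saline. With Ang/PE it was at 36.4, 19.9, 27.9, 32.0 and 22.5 CPM, so the groups overlapped almost fully. The Ang/PE against saline difference was -0.15 (SE 0.18, adjusted p = 0.686 in edgeR), and its interaction with genotype was 0.52 (SE 0.26, adjusted p = 0.384 in edgeR). The 4 MCT1KO saline hearts were all below the 6 WT saline hearts, a log2 difference of -0.41 (SE 0.17, unadjusted p = 0.0239, adjusted p = 0.232 in edgeR). No other of the 9 genes separated the genotypes with saline, and 1.82% of all tested genes were lower in MCT1KO without overlap. Against no pump, the Ang/PE values of Adra1b were -0.43 (SE 0.20, adjusted p = 0.535) in WT and -0.41 (SE 0.19, adjusted p = 0.345) in MCT1KO in edgeR.

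Adra1a, the other alpha-1 receptor well expressed in these hearts, was lowest on average in the MCT1KO saline group. Its MCT1KO levels were 63.4, 84.8 and 55.4 CPM without a pump and 31.9, 34.5, 55.5 and 35.7 with saline. The log2 difference between these groups was -0.79 (SE 0.30, unadjusted p = 0.015, adjusted p = 0.288 in edgeR), and the groups overlapped by 1 saline heart. With Ang/PE the MCT1KO hearts had 55.1, 18.2, 62.6, 49.4 and 48.9 CPM, so 1 heart lay far below the others. WT hearts had 71.2, 43.6, 56.3 and 52.7 CPM without a pump and 63.0, 51.6 and 42.3 with Ang/PE. With saline WT hearts ran from 33.5 through a median of 56.9 to 67.8 CPM, and all 3 WT groups overlapped. For saline against no pump the WT difference was -0.06 (SE 0.25, adjusted p = 0.92) and the interaction -0.73 (SE 0.39, adjusted p = 0.341) in edgeR.

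Adra1d, the scarcest of the 3 alpha-1 receptors, was higher on average in WT saline hearts than in WT hearts without a pump. The no pump hearts had 4.47, 2.78, 1.80 and 2.68 CPM, and the saline hearts ran from 3.33 through a median of 5.09 to 7.59. The groups overlapped by 1 no pump heart, and the log2 fold change was 0.82 (SE 0.29, interval 0.22 to 1.43, unadjusted p = 0.00963, adjusted p = 0.0868 in edgeR). It passed without WT no pump replicate 1, the highest of its group (1.096, adjusted p = 0.0253 in edgeR), and without MCT1KO saline replicate 4 (0.82, adjusted p = 0.0492). Over all hearts left out singly, it ran from 0.64 to 1.096 (adjusted p = 0.0253 to 0.274 in edgeR). WT Ang/PE hearts had 4.12, 3.91 and 2.29 CPM, -0.59 against saline (SE 0.32, adjusted p = 0.326 in edgeR). In MCT1KO hearts Adra1d was at 3.48, 4.16 and 2.86 CPM without a pump, at 4.44, 4.19, 2.94 and 7.96 with saline and at 2.56, 6.49, 3.98, 5.68 and 3.54 with Ang/PE. These groups overlapped, with a saline against no pump difference of 0.49 (SE 0.34, adjusted p = 0.597 in edgeR). In the annotation Adra1d overlaps Gm14285 on the opposite strand, and without a stated strand setting of the counting their reads cannot be told apart.

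**Figure D2:**
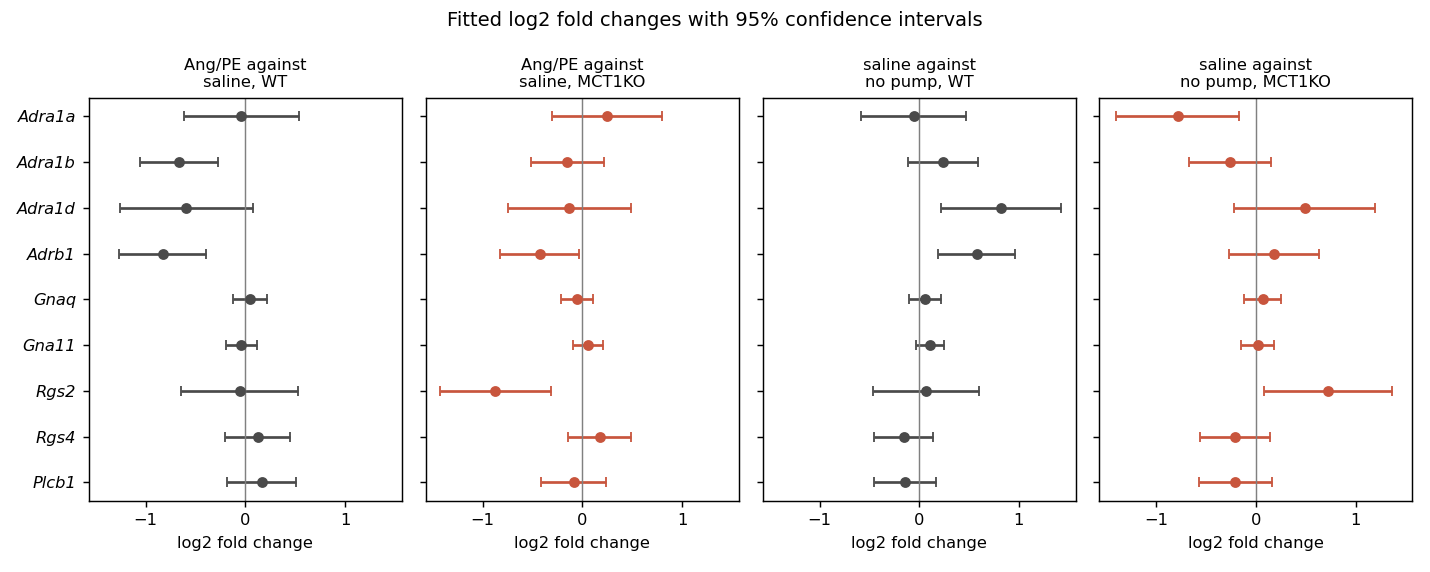
Fitted log2 fold changes (horizontal axes) of the 9 genes with 95% confidence intervals, for Ang/PE against saline and saline against no pump in WT (grey) and MCT1KO (red) hearts. The intervals of Gnaq and Gna11 are narrow and include 0 in all 4 panels, while that of Adrb1 leaves out 0 in 3 of them before any adjustment for the number of genes.

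Gnaq and Gna11, the alpha subunits that carry the signal from alpha-1 and angiotensin receptors to phospholipase C, differed little between the groups. Gnaq was between 45.4 and 63.8 CPM and Gna11 between 61.3 and 79.4 CPM over all 25 hearts. In WT hearts Gnaq was at 51.5, 47.7, 45.4 and 45.6 CPM without a pump, at 45.8 to 53.4 (median 49.7) with saline and at 48.4, 53.9 and 51.3 with Ang/PE. In every comparison the groups overlapped for both genes. Over the 11 comparisons the log2 fold changes of Gnaq ran from -0.10 to 0.13 and those of Gna11 from -0.10 to 0.11, with smallest adjusted p-values of 0.38 and 0.347 in edgeR. The 95% intervals reached no further than -0.33 to 0.31 for Gnaq and -0.32 to 0.31 for Gna11.

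Rgs2, an RGS protein selective for Gq, varied more from heart to heart than any of the 9 except Adra1d, by the coefficient of variation. In MCT1KO saline hearts it was at 39.4, 37.04, 22.7 and 71.4 CPM, and in MCT1KO Ang/PE hearts at 37.4, 20.04, 19.4, 23.7 and 16.4. Most Ang/PE hearts were below most saline hearts, but 1 heart of each group crossed over. The log2 fold change was -0.87 (SE 0.27, interval -1.43 to -0.32, unadjusted p = 0.00371, adjusted p = 0.0654 in edgeR). Without either heart that crossed over, MCT1KO saline replicate 3 or MCT1KO Ang/PE replicate 1, it passed edgeR's test, at -1.09 (adjusted p = 0.0111) and -1.12 (adjusted p = 0.0315). Without MCT1KO saline replicate 4, the heart with 71.4 CPM, the value of Rgs2 was -0.51 (adjusted p = 0.38). MCT1KO hearts without a pump had 29.98, 27.9 and 19.8 CPM, and saline against no pump gave 0.72 (SE 0.31, unadjusted p = 0.0288, adjusted p = 0.346 in edgeR). Ang/PE against no pump in MCT1KO hearts gave -0.15 (SE 0.29, adjusted p = 0.903 in edgeR).

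In WT hearts Rgs2 was at 33.9, 41.9, 26.4 and 35.5 CPM without a pump and at 31.8, 35.9 and 36.2 with Ang/PE. With saline the 6 hearts ran from 27.8 through a median of 32.7 to 49.3 CPM, and the 3 groups overlapped. Ang/PE against saline gave -0.06 (SE 0.28, adjusted p = 0.939) and saline against no pump 0.06 (SE 0.26, adjusted p = 0.909) in edgeR. The interactions of genotype with Ang/PE (-0.82, SE 0.39, unadjusted p = 0.0465, adjusted p = 0.363) and with saline (0.66, SE 0.40, adjusted p = 0.402) did not pass edgeR's test.

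Among the saline hearts, the heart with the most atrial markers had the most Rgs2, and the heart with the least had the least. MCT1KO saline replicates 1 to 4 had 695, 643, 1.5 and 3680 CPM of summed Myl7, Myl4 and Sln, beside 39.4, 37.04, 22.7 and 71.4 CPM of Rgs2. The order between was looser, with Spearman's rho of 0.77 over the 10 saline hearts. WT saline replicates 3, 4 and 6 had atrial sums of 506, 1140 and 519 CPM, beside 49.3, 36.4 and 44.6 CPM of Rgs2. The 2 saline hearts with the lowest atrial sum, MCT1KO replicate 3 and WT replicate 1 (2.03 CPM), had 22.7 and 27.8 CPM of Rgs2, the lowest of their groups. Adrb1 was also lowest of its group in these 2 hearts, at 20.6 and 27.8 CPM, and Adra1a was highest there, at 55.5 and 67.8 CPM. With the atrial and fat markers as covariates in edgeR, the Ang/PE against saline value of Rgs2 in MCT1KO was 0.03 (adjusted p = 0.984). In WT hearts that of Adrb1 was -0.51 (adjusted p = 0.857), that of Adra1b -0.56 (adjusted p = 0.857), and the saline against no pump value of Adrb1 was 0.25 (adjusted p = 0.808). The atrial markers largely followed the saline label, with 8 saline hearts above every heart of the other groups. These refits therefore cannot tell the markers from the treatment. Calls over all tested genes fell too, from 4.46% to 0.00566% for Ang/PE against saline in MCT1KO hearts. For saline against no pump in WT they fell from 6.61% to 0%. The part of the atrial markers in these values was not tested. In bulk tissue, fewer cells of a type and less RNA per cell cannot be told apart.

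**Figure D3:**
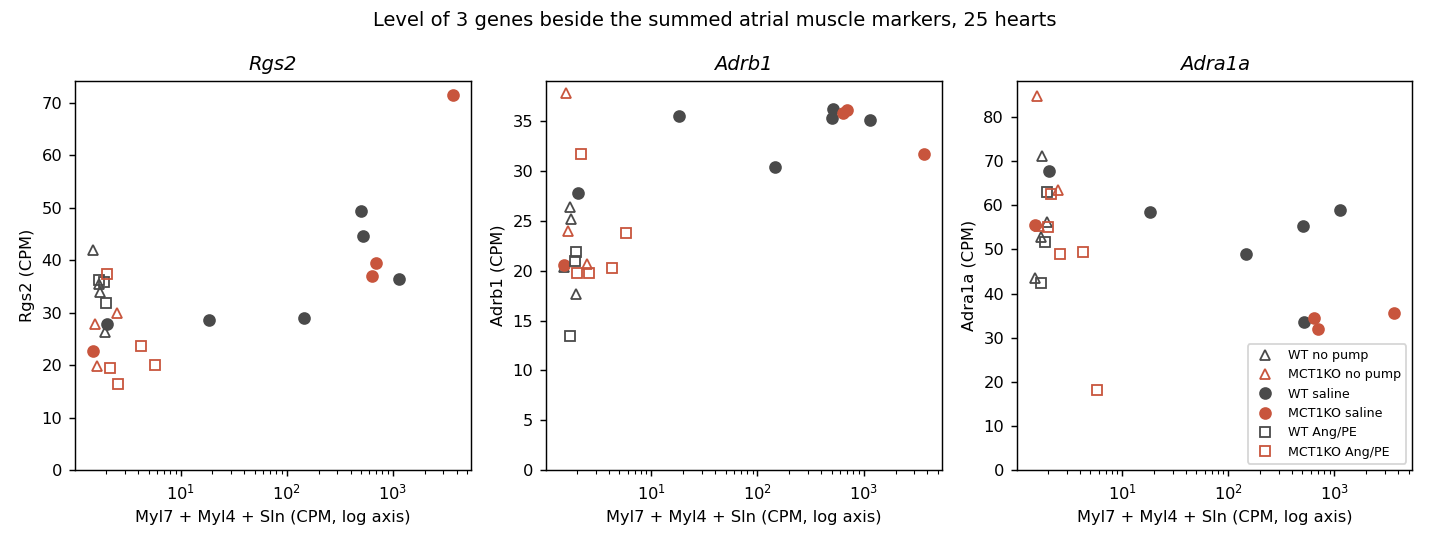
Level of Rgs2, Adrb1 and Adra1a (CPM, linear vertical axes from 0) against the sum of Myl7, Myl4 and Sln (CPM, log axis) in each of the 25 hearts; symbols give the treatment and colours the genotype. The 8 saline hearts with high atrial markers lie to the right, among them the heart with 71.4 CPM of Rgs2.

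Rgs4, a second RGS protein of cardiac muscle, was between 10.6 and 18.7 CPM in all hearts. In MCT1KO hearts it was at 12.7, 10.6, 18.7 and 11.97 CPM with saline and at 11.2, 13.5, 17.2, 16.5 and 17.6 with Ang/PE. Its log2 fold changes over the 11 comparisons ran from -0.21 to 0.17, with a smallest adjusted p of 0.548 in edgeR, and no interval reached beyond -0.57 to 0.51. Of the MCT1KO saline hearts, the one with the most Rgs4 had the least Rgs2. Over the 25 hearts Spearman's rho of Rgs2 with Rgs4 was -0.735, and -0.445 for deviations from the group means, the most negative values of the 36 pairs among the 9 genes. With the summed atrial markers the 2 genes ran in opposite directions among the 10 saline hearts (0.77 for Rgs2 and -0.745 for Rgs4). The part of those markers in this pair was not tested. All values come from the same libraries, so the correlations are a description without a test.

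Plcb1, a phospholipase C isoform that Gq activates, was between 11.6 and 22.8 CPM. Both of these extremes were WT hearts without a pump, whose levels were 11.6, 22.8, 15.1 and 16.6 CPM. MCT1KO hearts without a pump had 18.8, 20.1 and 22.2 CPM, within that range. Over the 11 comparisons the log2 fold changes ran from -0.29 to 0.31, with a smallest adjusted p of 0.419 in edgeR and intervals within -0.72 to 0.67. In the annotation Plcb1 overlaps 9630028H03Rik on the opposite strand, so some of its reads cannot be told apart from those of that gene.

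Base composition moved most with the WT comparisons that involve saline, and less with several others. Over 17172 genes, Spearman's rho between the log2 fold change and the GC content of the longest transcript was 0.335 for saline against no pump and -0.32 for Ang/PE against saline in WT. In MCT1KO hearts it was 0.134 and 0.0316. It was 0.268 for the Ang/PE interaction and -0.143 for the saline interaction. For MCT1KO against WT it was 0.225 with Ang/PE, -0.183 with saline and 0.0458 with no pump. For Ang/PE against no pump it was 0.168 in MCT1KO and 0.0228 in WT. Adra1d (65.4% GC) and Adrb1 (58.8%) were in the top 1 of 10 bins of genes by GC content, with 57.5 to 78.3% GC, whose median log2 fold changes in WT were 0.14 for saline against no pump and -0.16 for Ang/PE against saline. Of the 1718 genes in that bin, 7.16% were at least as high as Adrb1 and 3.43% at least as high as Adra1d for saline against no pump, and 3.84% at least as low as Adrb1 for Ang/PE against saline. With offsets for GC content and length in edgeR, Adrb1 was 0.44 for saline against no pump (adjusted p = 0.175) and -0.70 for Ang/PE against saline (adjusted p = 0.0791). Adra1d became 0.66 (adjusted p = 0.226) and Adra1b -0.59 (adjusted p = 0.14) with the same offsets, while Rgs2, with 43.6% GC, was at -0.88 (adjusted p = 0.0653) in MCT1KO hearts.

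**Figure D4:**
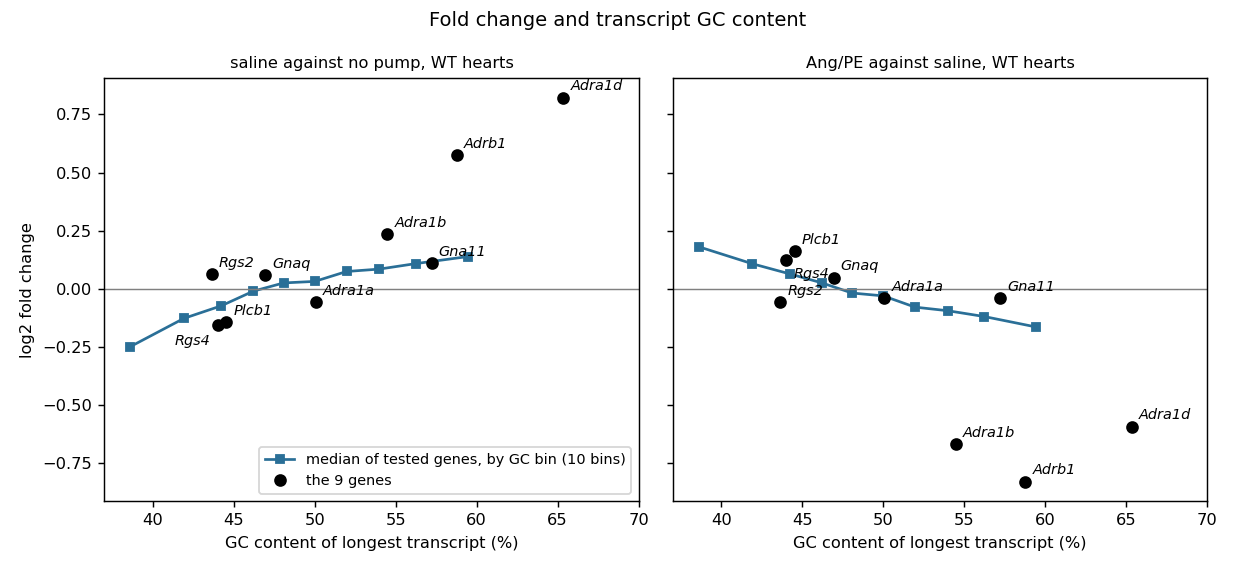
Log2 fold change (vertical axes) against GC content of the longest transcript (percent) in WT hearts, for saline against no pump and Ang/PE against saline; black points are the 9 genes and blue squares the medians of tested genes in 10 bins of GC content. The medians rise with GC content in the first comparison and decline in the second, and Adrb1 and Adra1d lie beyond them in the same directions.

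Around the 9 genes, 91 others of the pathway were listed and 84 of them were tested. In WT hearts 0 of the 84 were called for Ang/PE against saline, and in MCT1KO hearts 3 (3.57%, against 4.46% of all tested genes). Saline against no pump gave 5 calls in WT (5.95%, against 6.61% of all tested genes), all higher, and 0 in MCT1KO. The other 7 comparisons gave 0. These shares were no larger than those of all genes.

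The beta receptor arm held 4 of these 8 calls. With saline in WT hearts, edgeR found the adenylyl cyclases Adcy5 and Adcy9, which make cyclic AMP, to have risen by 0.50 (SE 0.13, adjusted p = 0.0299) and 0.46 (SE 0.12, adjusted p = 0.0293) on the log2 scale. Akap5, which anchors protein kinase A near membrane receptors, rose from 3.88 ± 1.40 CPM (n = 4) to 9.14 ± 2.66 CPM (n = 6), by 1.23 on the log2 scale (SE 0.33, adjusted p = 0.0323 in edgeR). The median of the 14 genes of this arm was 0.16, against 0.00 for all tested genes, and 13 of the 14 were above 0, as were 50.3% of all tested genes. In MCT1KO hearts the same step had 7 of the 14 above 0 and a median of 0.01, with 51.3% of all tested genes above 0. Other lists leaned nearly as far elsewhere. Of the other G protein subunits 12 of 13 were above 0 for MCT1KO against WT with Ang/PE. Of the other RGS proteins 11 of 12 were above 0 for the saline interaction. For saline against no pump in WT the bin of highest GC content also had a median of 0.14, and the part of GC content in the arm's median was not tested. In MCT1KO hearts Prkar1a, a regulatory subunit of protein kinase A, rose from 476.2 ± 110 CPM with saline (n = 4) to 758.5 ± 165 CPM with Ang/PE (n = 5; log2 fold change 0.67, SE 0.16, adjusted p = 0.0212 in edgeR). Without MCT1KO saline replicate 4 the call on Prkar1a was lost (0.52, adjusted p = 0.112 in edgeR), as it was without MCT1KO Ang/PE replicate 5 (0.61, adjusted p = 0.0514). It was also lost with the atrial and fat covariates (0.39, adjusted p = 0.625), where Adcy5 was at 0.22 in WT. Over all tested genes, calls for Ang/PE against saline in MCT1KO fell in these refits too. From 4.46% they fell to 0.222% and 2.29% without these hearts and to 0.00566% with the covariates.

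The phospholipase C isoform Plce1 and the diacylglycerol kinase Dgkz, which acts on its product, rose with saline in WT hearts, by 0.34 (SE 0.10, adjusted p = 0.0454) and 0.24 (SE 0.07, adjusted p = 0.0418) on the log2 scale in edgeR. Of the 20 effectors after phospholipase C, 11 were above 0 in that comparison, with a median of 0.02. With GC and length offsets all 5 calls of this comparison were lost in edgeR, at 0.02 for Dgkz (adjusted p = 0.933), 0.21 for Plce1 (0.181), 0.27 for Adcy5 (0.173), 0.30 for Adcy9 (0.174) and 1.28 for Akap5 (0.0671). All 5 were also lost in edgeR without any 1 of WT no pump replicates 2, 3 and 4 or WT saline replicates 2 and 3, with the atrial and fat covariates (adjusted p = 0.643 to 0.756) and with Xist as a covariate (adjusted p = 0.063 to 0.109). Calls over all tested genes fell in the same refits, from 6.61% to between 0.341% and 3.77% without 1 of these hearts. They fell to 0% with the atrial and fat covariates, 3.1% with Xist and 0.769% with the GC and length offsets.

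Among the other adrenergic receptors Adrb3, a beta receptor known from fat, fell in MCT1KO hearts with Ang/PE against saline (log2 fold change -6.57, SE 1.27, adjusted p = 0.0123 in edgeR). Its levels were at most 0.18 CPM in the Ang/PE hearts, with a median of 2.08 in the saline hearts and 37.2 CPM in saline replicate 4, the heart with 1220 CPM of fat markers. Without that heart the value was -3.74 (adjusted p = 0.0734 in edgeR). Rgs7, an RGS protein known from neurons, fell in the same comparison by 2.14 on the log2 scale (SE 0.56, adjusted p = 0.0313 in edgeR). Without that heart its value was -1.11 (adjusted p = 0.307), and without any 1 of MCT1KO Ang/PE replicates 2 to 5 it was between -2.21 and -1.98 (adjusted p = 0.0575 to 0.0742). Of all tested genes 4.46% were called with every heart and 0.222% without saline replicate 4. Without 1 of those Ang/PE replicates the share was 2.29% to 4.08%. The other lists held no call, and their genes of smallest p were F2r, a thrombin receptor (0.59 for Ang/PE against no pump in MCT1KO, SE 0.17, adjusted p = 0.113 in edgeR), Gna12, a G protein subunit (-0.51 for MCT1KO against WT with saline, SE 0.13, adjusted p = 0.102 in edgeR) and Grk3, a kinase that silences receptors (0.85 in the same comparison, SE 0.28, adjusted p = 0.17 in edgeR).

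The genes whose levels followed each member most closely over the 25 hearts were found among 11696 genes, by Spearman's rho of log2 CPM, as a description without a test. For Adrb1 they were Zmym3 (0.912), Tmem86a (0.909) and Sec14l5 (0.896), and for Adra1b Agpat3 (0.908), Impa2 (0.902) and Slc27a1 (0.895). Adra1a was most like Idh3g (0.812), Asb14 (0.806) and BC004004 (0.802), and Adra1d most like Gtf2ird1 (0.842), Hmgcs1 (0.818) and Tmem127 (0.815). Gna11 was followed by Nudcd3 (0.849), Ap1b1 (0.829) and Snap47 (0.82), and Gnaq by Lrig2 (0.781), Anapc1 (0.758) and Asah2 (0.749). Rgs2 had Unc13b (0.767), Rp1 (0.758) and Lamb3 (0.742), Rgs4 had Fgd5 (0.788), Kctd20 (0.712) and Neurl1b (0.681), and Plcb1 had Git2 (0.815), Lncpint (0.783) and Pcdhga5 (0.765). Within the 9 genes the highest values were 0.607 for Adra1d with Gna11 and 0.576 for Adra1b with Adrb1. They lie below all of these, but the top values were picked from 11696 genes, so the sets cannot be compared. The points share library depth, base composition and the sampled tissue.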

How the data were processed

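Ribosomal RNA was depleted from total heart RNA and strand-specific libraries were made, per the labels' protocols. The authors deposited 1 table of whole-number read counts per Ensembl gene for the 25 libraries, which was used as raw counts. Per the submitters' processing notes the tools were cutadapt 1.16, STAR 2.7.9a, featureCounts 1.6.3 and DESeq2 1.42.1 with builds GRCm39 and mm39. The strand setting and annotation are not given in the sources used here, so no gene coordinates are printed.

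Symbols came from a gene name table. Exon length and GC content came from GENCODE M21. Genes were filtered with filterByExpr by group and scaled by TMM, and 1 model of 6 groups (19 residual degrees of freedom) was fitted with glmQLFit (robust) and tested two-sided with glmQLFTest in edgeR 4.0.16 (R 4.3.3). P-values were adjusted by Benjamini-Hochberg over the 17682 genes of each comparison, and genes were called below 0.05. CPM uses the TMM-scaled library size. The code was tested on simulated data.

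Alternatives were RLE scaling, DESeq2 1.42.0, no low-count filter, a fit of just the compared groups, a replicate block, a fit that was not robust, no mitochondrial genes, an Xist covariate, atrial and fat marker covariates, and leaving out each heart. GC and length offsets (mgcv 1.9.3), alone and with Xist, were added after seeing the data. The members, the lists and the alternatives were chosen with earlier results of these data known. The text names all members, Slc16a1, every called list gene or, in a list without one, its gene of smallest p, and the 3 genes most like each member. Replicate pairs differed beyond sampling noise (chi-square per degree of freedom at least 3.33 over 43 pairs). The result of 1 marker list is not reported here.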

Additional observations from a re-analysis of the deposited data

Results flagged for a closer look

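Adra1a in MCT1KO Ang/PE replicate 2 stood apart from the 4 other hearts of its group. Its level was 4.18 on the log2 CPM scale (18.2 CPM), and the nearest heart was at 5.61. The gap was 0.801 of the group's whole range, above Dixon's critical value of 0.71 for 5 samples. The same heart had 5144 CPM of Nppa, an atrial and hypertrophy marker, against 313.4 to 1759 in the other 4, while its sum of the other atrial markers was 5.73 CPM. The part of Nppa or of what it marks in the Adra1a level was not tested. This was 1 of 40 such tests on the 9 genes and Slc16a1, where chance gives about 2.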

How the results depend on the processing

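The count of members called, 0 in all 11 comparisons, was recomputed in 396 refits, and 384 again gave 0. Over these refits the share of all tested genes called ran from 0% to 13.8%. With only the groups compared, edgeR called 2 in WT for Ang/PE against saline (Adrb1, adjusted p = 0.0114, and Adra1b, 0.00479; 5.69% of all tested genes were called) and 2 for saline against no pump in WT (Adrb1, 0.00723, and Adra1d, 0.0448; 13.8%). DESeq2 called 2, 1 (Rgs2 in MCT1KO, adjusted p = 0.0221) and 2 in the comparisons named for it above. Leaving out single hearts gave 0 to 1 for Ang/PE against saline in each genotype and 0 to 1 for saline against no pump in WT. The share of all tested genes called in these refits moved widely too. It ran from 0.00553% to 1.79% for Ang/PE against saline in WT and from 0.222% to 8.72% in MCT1KO. For saline against no pump in WT it ran from 0.341% to 12.7%.

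Some fold changes took the other sign, none of them past the threshold. With atrial and fat covariates the log2 values were 0.45 (WT) and 0.035 (MCT1KO) for Rgs2, 0.78 for Adrb3 and 0.065 for Rgs7 for Ang/PE against saline. For saline against no pump they were 0.35 for Adra1a and -0.46 for Rgs2 in WT, and -0.13 for Adra1d, -0.16 for Adrb1 and -0.20 for Rgs2 in MCT1KO. Grk3 was at -0.20 for MCT1KO against WT with saline. With the Xist covariate Rgs2 was at 0.0070 for Ang/PE against saline in WT and the saline interaction of Adra1d at 0.27 (0.40 with GC and length offsets too). Slc16a1 without a pump was at 0.026 with these offsets and 0.0096 with Xist as well. Leaving out single hearts gave -0.12 to 0.054 for Rgs2 for Ang/PE against saline in WT, -0.16 to 0.075 for Adra1a and -0.048 to 0.17 for Rgs2 for saline against no pump in WT, and -0.14 to 0.094 for Slc16a1 without a pump. The cause was not tested. Of the 75 member fold changes not listed singly, 49 took the other sign in at least 1 refit, in 164 of 2700 refits, and 0 passed the threshold.

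F2r passed with DESeq2 (0.59, adjusted p = 0.0381), with the atrial and fat covariates (0.57, adjusted p = 0.0418 in edgeR) and without MCT1KO saline replicate 4 (0.59, adjusted p = 0.0453). Gna12 passed with DESeq2 (-0.51, adjusted p = 0.026), and Grk3 without MCT1KO saline replicate 3 (1.12, adjusted p = 0.0299 in edgeR). Leaving out other hearts weakened these genes. Over all hearts left out singly, Grk3 ran from 0.12 to 1.12 (adjusted p = 0.0299 to 0.885 in edgeR). F2r ran from 0.50 to 0.66 (adjusted p = 0.0453 to 0.5) and Gna12 from -0.55 to -0.40 (adjusted p = 0.0603 to 0.709) in edgeR. With only the groups compared the calls on Rgs7 (adjusted p = 0.227) and Prkar1a (0.232) were lost, and that on Rgs7 also without the low-count filter (0.0828). In these refits 0.00632% and 1.21% of all tested genes were called in that comparison, against 4.46% in the main fit.

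Replicate numbers gave no steady pairing of the hearts. The deviations of same-numbered hearts correlated by -0.01 to 0.04 for Ang/PE against saline in WT, and in no comparison did all pairs exceed 0.1. The highest values were 0.405 for replicate 4 in MCT1KO against WT with saline and 0.211 for replicate 3 with no pump. The lowest was -0.232, for replicate 3 in saline against no pump in MCT1KO. With the replicate block 0 members were called, beside at most 3.02% of all tested genes in any comparison (2.98% for saline against no pump in WT). Adra1a took the other sign for saline against no pump in WT (0.079), Adrb1 was at -0.85 (adjusted p = 0.0878 in edgeR) for Ang/PE against saline in WT, and Gna12 passed at -0.60 (adjusted p = 0.0483 in edgeR) while Plce1 (0.0779), Dgkz (0.103) and Adcy5 (0.0673) did not.

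Adra1d, with 28 to 135 reads a library and a biological coefficient of variation of 29.6%, is the least precisely measured member, and Gna11, with 8.65%, the most.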
